A study of Mus musculus with 2 samples.

Results

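Kupffer cells of the liver of 1 saline-injected mouse were described from single-cell RNA counts. Cells of the saline library needed 1000 unique molecular identifiers (UMIs, each standing for 1 captured transcript) and 500 genes, with no more than 15% of UMIs from mitochondrial genes. Kupffer cells were then chosen by their own counts of marker genes, so these counts are no finding. A cell was one if Cd5l, Marco, Slc40a1, Clec4f and Vsig4 together reached 1% of its UMIs without hemoglobin. S100a8 and S100a9 had to stay under 1%, Kdr, Ptprb and Clec4g at 1 UMI or fewer, and at most 2 of 7 cell cycle genes (Mki67, Top2a, Birc5, Ube2c, Cdk1, Pclaf, Rrm2) could be detected. The rule kept 7650 of 11572 saline cells that passed the filters, 66.1% (exact Clopper-Pearson 95% interval 65.2 to 67.0%). The other 3922 saline cells are the cells against which they are described. In both libraries together 25418 cells passed the filters.

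The series studies the reprogramming of Kupffer cells into erythrophagocytes, macrophages that take up red cells. Each group is 1 C57BL/6J mouse of 7 to 10 weeks. The Ter119 mouse received the red cell antibody Ter119 subcutaneously, 35 ug once and then 10 ug daily for 10 injections, and the saline mouse received the same volume of saline, so that the Kupffer cells described here come from an injected and not from an untouched animal. Livers of both mice were digested 24 after the last injection, with no unit given in the labels, and cells were enriched with beads against F4/80 and CD11b, stained with hashtag antibodies and pooled before droplet capture. The enrichment selects myeloid cells, so the share of Kupffer cells above is a share of this preparation and not of liver cells. With 1 library a group, the design allows neither a test nor a check against replicates. All 95% intervals cover counting error only, and cells of 1 mouse are not replicates.

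Kupffer cells are the resident macrophages of the liver. They sit in the sinusoids, where they take particles, bacteria and aged red cells from the blood, recycle the iron of hemoglobin and present antigen. Their identity is known to depend on signals from the neighbouring endothelial, stellate and parenchymal cells and on transcription factors that include LXR alpha (Nr1h3), ID3 and SPIC. In the mouse, CLEC4F and TIM-4 (Timd4) mark the resident cells, and newly arrived monocyte-derived macrophages acquire CLEC4F before TIM-4.

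The saline library held 18354 barcodes and 97181787 UMIs, and the Ter119 library, used at the end for comparison, 25760 barcodes and 61892074 UMIs. The Kupffer cells had a median of 6448 UMIs (5th to 95th percentile 1249 to 15239), 2576 genes and 7.33% mitochondrial UMIs. Values are given as CPM, counts per 1000000 UMIs without hemoglobin, summed over the cells of a group. Since the 3' method captures 1 tag a transcript, CPM values do not scale with transcript length. There were 133 barcode sequences that occurred in both libraries, and 51 of them were saline Kupffer cells. Without these barcodes the share of Kupffer cells was 66.1% as before.

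The 7 markers that define the cell type were present together. All 7 of Clec4f, Vsig4, Timd4, Cd5l, C6, Folr2 and Cd163 had a UMI in 71.8% of the Kupffer cells, 6 of them in a further 17.2% and 5 in 7.03%. Of the saline cells with a Kupffer sum under 1%, 3.79% had all 7. Clec4f, Vsig4 and Cd5l belong to the rule's sum, so the rule bears on both shares. The shares were taken at full depth, and the cells under 1% were shallower, with a median of 3612 UMIs against 6448. Clec4f, a galactose-binding lectin of Kupffer cells, had 5475 CPM (5455 to 5494) in Kupffer cells, against 3547 CPM in the other saline cells. Vsig4, the complement receptor CRIg, had 3301 CPM in Kupffer cells and 2099 in the other saline cells. Both were used by the rule, so these values describe the choice of cells. Of the markers that the rule did not count directly, Timd4, a phosphatidylserine receptor for dying cells, had 594 CPM (587 to 600.1) in Kupffer cells and 393 CPM in the other saline cells. C6, a complement component, had 1065 and 681 CPM, and the folate receptor Folr2 had 1225 and 829 CPM, in Kupffer cells and in the other saline cells in that order. Cd163, which takes up complexes of hemoglobin and haptoglobin, had 863 CPM in Kupffer cells and 551 CPM in the other saline cells. The excess over the other saline cells was between 1.16-fold (Marco) and 1.57-fold (Vsig4) for the 7 markers and the other genes of the rule's sum. Of those other cells, 1406 and 532 also reached the Kupffer sum and were set aside by the endothelial and the cell cycle limit.

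Against the 1952 saline cells with a Kupffer sum under 1% the same genes stood further apart. C6 was 9.69-fold higher in Kupffer cells than in those cells (9.11 to 10.3), Cd5l 9.12-fold, Cd163 8.60-fold, Clec4f 8.27-fold, Folr2 8.16-fold, Vsig4 8.15-fold and Timd4 6.09-fold. These cells were not free of the markers. After thinning every cell to 1000 UMIs, Clec4f was seen in 98.7% of Kupffer cells and in 55.02% of the 269 neutrophil-like saline cells, a type that should lack it, whose median depth before thinning was 2189 UMIs. Timd4 was seen in 42.7% of Kupffer cells and 11.9% of neutrophil-like cells, and C6 in 61.4% and 13.8%. The 5 genes of the sum took similar but not equal shares of it in Kupffer cells and in all cells with a sum under 1%. In Kupffer cells Cd5l made up 35.2%, Clec4f 25.3%, Slc40a1 20.5%, Vsig4 15.2% and Marco 3.76% of the sum. In the cells with a sum under 1% they made up 30.4%, 24.1%, 25.7%, 14.8% and 5.00% in the same order of genes. Kupffer transcripts were thus counted at a low level in neutrophil-like cells, and in similar proportions in the cells with a sum under 1% as a whole. That whole holds 139 cells with sums of 0.8 to 1.0% that met the other limits. The median sum was 0.128% in its monocyte-like and 0.662% in its hepatocyte-like cells. The part of each type in the proportions was not tested. The part of free RNA and of shared droplets in these levels was not tested.

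**Figure D1:**
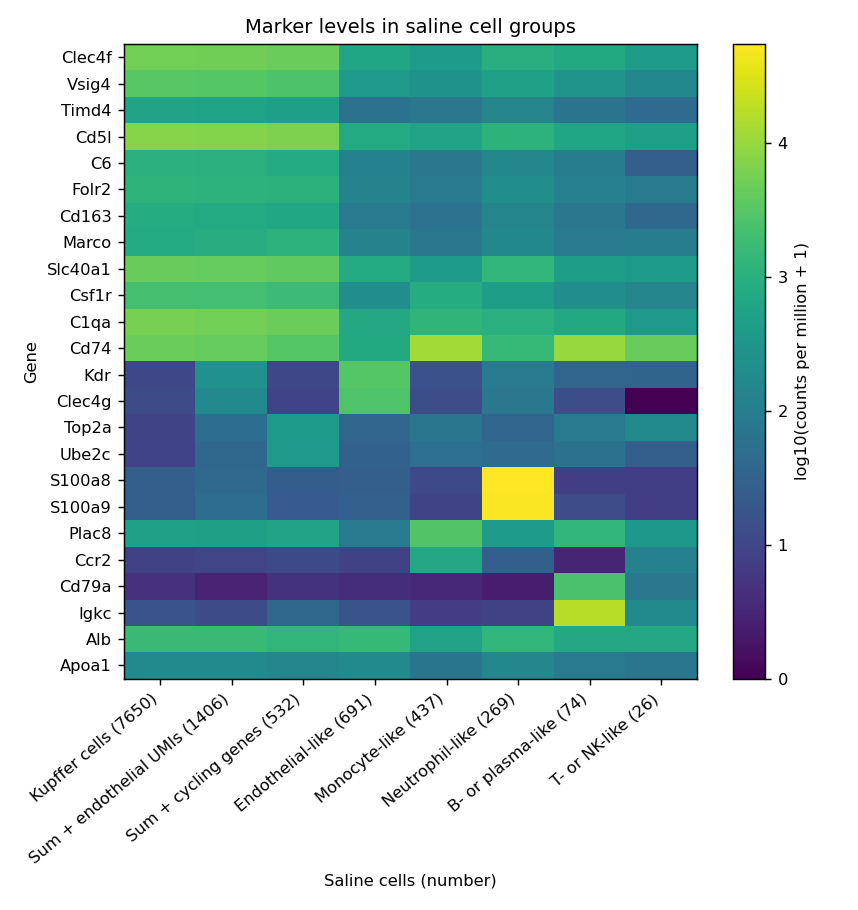
Levels of 24 marker genes (rows) as log10(CPM + 1) in 8 groups of saline cells (columns, with the number of cells), with Kupffer cells at the left. The Kupffer markers in the upper rows are high in the 3 groups at the left and lower but above 0 in the groups named from other markers, and Alb is counted in all 8 groups.

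To show the genes behind these counts, the 250 bases before the RefSeq start (RefSeq, GRCm38.p6) are printed for Cd5l and Timd4, whose spread between Kupffer cells was small, and for Marco, whose spread was large, as shown further on. The windows are Cd5l chr3:87357631-87357880 (+ strand), Timd4 chr11:46810549-46810798 (+ strand) and Marco chr1:120505025-120505274 (- strand), each read 5' to 3' on the strand of its gene.
Cd5l: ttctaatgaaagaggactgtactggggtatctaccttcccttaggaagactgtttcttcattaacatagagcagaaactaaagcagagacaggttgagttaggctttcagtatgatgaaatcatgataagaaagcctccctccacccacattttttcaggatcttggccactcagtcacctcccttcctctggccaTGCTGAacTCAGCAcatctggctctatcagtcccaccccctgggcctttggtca
Timd4: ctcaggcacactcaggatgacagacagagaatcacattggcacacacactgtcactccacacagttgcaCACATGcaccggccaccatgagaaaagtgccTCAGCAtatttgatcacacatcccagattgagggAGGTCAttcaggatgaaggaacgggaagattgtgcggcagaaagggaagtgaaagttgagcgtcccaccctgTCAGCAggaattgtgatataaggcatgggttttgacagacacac
Marco: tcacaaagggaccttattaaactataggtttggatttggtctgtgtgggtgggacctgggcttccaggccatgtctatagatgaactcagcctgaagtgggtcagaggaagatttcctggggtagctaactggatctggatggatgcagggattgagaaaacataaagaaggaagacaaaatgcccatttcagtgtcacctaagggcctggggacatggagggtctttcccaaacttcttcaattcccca
Capitals mark matches on either strand to 5 short motifs. These are TGCTGA, the core of the half-site of MAF proteins, AGGTCA, the half-site of nuclear receptors, AGGAAGT, a PU.1 type site, and the E-boxes CACGTG and CATGTG. The windows of Timd4 and Cd5l held 4 and 2 matches, and that of Marco held 0. Those of Vsig4 and Cd163 also held 0, that of C6 1, that of Clec4f 2 and the 2 windows of Folr2 3 and 2. A link between matches and spread was not tested. TGCTGA was in 5 of the 9 RefSeq windows of the 8 matched genes among the 7 markers, Marco and Slc40a1, and in 16.1% of 32851 windows of all genes. AGGTCA was in 3 of the 9 and in 14.0% of all windows, and AGGAAGT in 1 of the 9 and in 7.69% of all. CATGTG was in 2 of the 9 and 12.2% of all windows, and CACGTG in 0 of the 9 and 6.02%. A match of a few letters is a description of the sequence and not of a bound site.

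The Kupffer sum separated 2 bodies of cells. The 9620 saline cells that reached 1% formed a peak well above the limit (median 2.09% in the Kupffer cells, 5th to 95th percentile 1.31 to 2.83%), and the cells under the limit lay mostly under 0.5%. Near the limit, 223 Kupffer cells had a sum of 1.0 to 1.2% and 139 cells that met the other limits had 0.8 to 1.0%. The cells just inside were shallow (median 1977 UMIs) and had Clec4f at 2866 CPM, Cd5l at 3634 CPM and Timd4 at 407 CPM. The cells just outside were as shallow (median 1703 UMIs) and had 2054, 3022 and 349 CPM of the same genes. Of the cells set aside although they reached the sum, each was counted under 1 limit. The neutrophil limit took 32 (0.277% of saline cells), the endothelial limit 1406 (12.2%) of the rest, and the cell cycle limit 532 (4.60%) of those with at most 1 endothelial UMI. In all, 647 cells that reached the sum had 3 or more cell cycle genes, and 114 of them stand among the 1406. The endothelial limit counts UMIs and moves with depth: cells with 0 such UMIs had a median of 6187 UMIs, cells with 1 had 7874, and cells with 2 had 8546. With the limit applied after thinning to 1000 UMIs, 75.3% of saline cells were Kupffer cells.

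**Figure D2:**
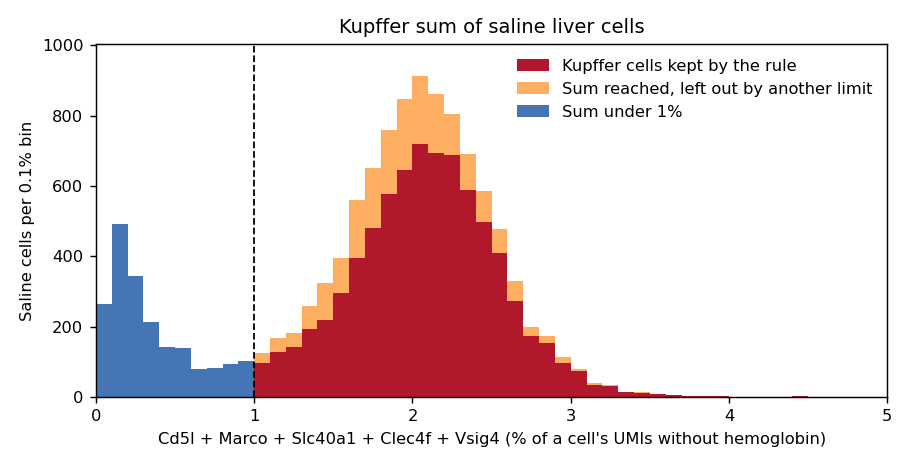
Number of saline cells (vertical axis) by the share of their UMIs without hemoglobin that fell on Cd5l, Marco, Slc40a1, Clec4f and Vsig4 (horizontal axis, percent, bins of 0.1%). Kupffer cells kept by the rule, cells set aside by another limit and cells under 1% are stacked in separate colours, and the dashed line marks the limit of 1%.

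The Kupffer cells expressed few genes that set them apart from the whole of the other saline cells by 2-fold. Of 6756 genes with at least 20 CPM in either group, 3 (0.0444%) were higher by 2-fold or more in Kupffer cells and 430 (6.36%) lower by 2-fold or more. Together these were 433 genes (6.41%). The 3 higher genes were the hemoglobins Hbb-bs, Hba-a1 and Hba-a2. Of the 10355 hemoglobin UMIs of the Kupffer cells, 92.9% lay in 10 cells in which hemoglobin reached 1% of UMIs, and without these 10 cells 0 genes were higher by 2-fold or more. Against the cells with a Kupffer sum under 1%, 522 of 7194 genes (7.26%) were higher by 2-fold or more in Kupffer cells and 953 (13.2%) lower by 2-fold or more. A gene could be measured through 1 group alone and then had to differ: 172 of the 522 higher genes had under 20 CPM in the cells with a sum under 1%, and 712 of the 953 lower genes had under 20 CPM in Kupffer cells. The rule chose these cells from the same counts, so these numbers are a description with no test. List counts below against cells with a sum under 1% are to be read beside 7.26% of all genes higher and 13.2% lower.

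Transcripts of the surface and secreted Kupffer proteins stood far above the cells with a low sum. Of 19 measured genes of this list of 20, 17 were higher by 2-fold or more in Kupffer cells than in the cells with a sum under 1% and 0 were lower, with a median log2 ratio of 2.66, against -0.06 over all genes. Besides the genes of the sum, Fcna, a ficolin that starts the lectin pathway of complement, had 1864 CPM in Kupffer cells and 238 in cells with a sum under 1%. Among the genes of the sum, Slc40a1, the iron exporter ferroportin, had 4449 and 704 CPM in the same 2 groups. The scavenger receptor Marco, also in the sum, had 815 and 137 CPM. The list holds the genes of the sum, in which the rule itself set the 2 groups apart, so their excess is no finding. Cd209f, a C-type lectin, was low at 29.3 CPM in Kupffer cells and 5.16 CPM in cells with a sum under 1%, and so was measured through Kupffer cells alone.

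Complement genes were abundant in Kupffer cells. Of 17 measured genes, 9 were higher by 2-fold or more and 2 lower by 2-fold or more in Kupffer cells than in cells with a sum under 1%, with a median log2 ratio of 1.75. Vsig4, a gene of the rule's sum, is among the 9, so its excess was set by the rule. The 3 chains of C1q, which recognise immune complexes and dying cells, had 5819 CPM (C1qa), 3651 CPM (C1qb) and 4389 CPM (C1qc) in Kupffer cells, against 1254, 1005 and 916 CPM in cells with a sum under 1%. Properdin (Cfp), which stabilises the alternative pathway convertase, had 1719.9 and 322 CPM. C4b and C2, which form the classical pathway convertase, had 478 and 157 CPM in Kupffer cells and 127 and 35.1 CPM in cells with a sum under 1%. Receptors for antibody were also present. Fcgr4 and Fcgr1, activating Fc receptors, had 559 and 221 CPM, and the shared signalling chain Fcer1g had 2065 CPM, in Kupffer cells.

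Genes of iron and heme handling were high in level and moderate in contrast. Of 14 measured genes of 17, 9 were higher by 2-fold or more in Kupffer cells than in cells with a sum under 1% (1 of them measured through Kupffer cells alone) and 0 were lower, with a median log2 ratio of 1.29. Slc40a1, a gene of the rule's sum, is among the 9, so its excess was set by the rule. Heme oxygenase Hmox1, which opens the heme ring, had 999 CPM in Kupffer cells and 191 CPM in cells with a sum under 1%. The ferritin chains Ftl1 and Fth1, which store iron in every cell, had 7171 and 5702 CPM in Kupffer cells and 4105 and 4639.6 CPM in cells with a sum under 1%. Spic, known from splenic macrophages that recycle iron, had 130.03 CPM in Kupffer cells and 29.8 CPM in cells with a sum under 1%. Lysosomal genes followed the same order: 13 of 25 measured genes were higher by 2-fold or more in Kupffer cells than in cells with a sum under 1% and 1 was lower. Cathepsin B (Ctsb) had 6931 CPM in Kupffer cells and 1631 CPM in cells with a sum under 1%, and legumain (Lgmn), an asparaginyl protease, had 3686 and 766 CPM.

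Lipid genes were led by apolipoproteins. Apoe, outside the mitochondrial genes the most abundant transcript of Kupffer cells after Tmsb4x and Actb, had 10505 CPM in Kupffer cells and 5128 CPM in cells with a sum under 1%, and Apoc1 had 3116 and 641 CPM. Lipoprotein lipase (Lpl), the phospholipid transfer protein Pltp and the cholesterol exporter Abca1 had 1711, 696 and 560.5 CPM in Kupffer cells, against 319, 138 and 118 CPM in cells with a sum under 1%. Of 16 measured genes of this list of LXR targets and lipid carriers, 8 were higher by 2-fold or more in Kupffer cells and 3 lower by 2-fold or more.

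Among transcription factors the contrast was narrower, with 6 of 17 measured genes higher by 2-fold or more in Kupffer cells than in cells with a sum under 1% and 1 lower (median log2 ratio 0.33). Nr1h3 had 845 CPM in Kupffer cells and 177 CPM in cells with a sum under 1%. Maf was level, with 1202 CPM in Kupffer cells and 1193 CPM in cells with a sum under 1%, among which endothelial-like cells had 3531 CPM. Of the receptors for signals of the niche and for microbial patterns, 5 of 16 were higher by 2-fold or more and 3 lower. Over all genes 7.26% were higher and 13.2% lower. The CSF-1 receptor Csf1r, on which macrophages depend for survival, had 2226 CPM in Kupffer cells and 566 CPM in cells with a sum under 1%.

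MHC class II genes, which present antigen to T cells, lay between the levels of the other types. The 10 MHC class II genes summed to 10167 CPM in Kupffer cells, against 28754 CPM in monocyte-like, 20825 in B- or plasma-like, 3471 in neutrophil-like and 1801 CPM in endothelial-like cells. The invariant chain Cd74 had 4662 CPM in Kupffer cells, 12335 CPM in monocyte-like and 1493 CPM in neutrophil-like cells. Only 6 of the 10 genes reached 20 CPM in Kupffer cells. The 14 MHC class I genes summed to 11867 CPM in Kupffer cells and 10568 CPM in cells with a sum under 1%. Of them, 0 were higher and 3 lower by 2-fold or more, beside 7.26% and 13.2% of all genes. Of the 3, 1 was measured through the cells with a sum under 1% alone. The class I light chain B2m had 5002 CPM in Kupffer cells and 3772 CPM in cells with a sum under 1%. Of inducible cytokines, 1 of 10 measured genes was higher and 7 were lower by 2-fold or more in Kupffer cells, but the higher gene and 4 of the lower ones were measured through 1 group alone. Il1b had 134 CPM in Kupffer cells and 334 CPM in cells with a sum under 1%, and the chemokine Cxcl9 had 42.2 and 384 CPM. Of 6 chemokines and cytokines known from resting tissue, 3 were higher and 1 lower by 2-fold or more. Cxcl13, which attracts B cells, had 339.7 and 98.01 CPM, Ccl24 398 and 112 CPM, Ccl6 956 and 621 CPM and Ccl9 24.3 and 139 CPM, in Kupffer cells and in cells with a sum under 1%. The 11 macrophage genes known from damaged or fatty tissue were spread widely in level. In Kupffer cells Lgals3 had 515, Anxa5 476, Cstb 305 and Trem2 38.99 CPM, while Gpnmb had 0.484 and Syngr1 0.149 CPM.

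Outside these lists, the 15 genes with the largest excess over all other saline cells stood between 1.53-fold (Ksr2) and 1.71-fold (Kcnj16, 1.62 to 1.81). They are Kcnj16, Pdgfc, Ttyh2, Slc45a3, Zdhhc14, Ppp1r9a, Paqr9, Tmem26, Tmem86a, Hdac9, Thrb, Lilra5, Adrb1, Slc16a9 and Ksr2. Their levels were modest. The inward rectifier potassium channel Kcnj16 had 101 CPM in Kupffer cells, 58.8 in the other saline cells and 10.2 in cells with a sum under 1%. The beta-1 adrenergic receptor Adrb1 had 121, 78.8 and 16.01 CPM, the thyroid hormone receptor Thrb 68.5, 44.7 and 11.2 CPM, and Paqr9 374, 240.1 and 50.8 CPM in the same order of groups. After thinning to 1000 UMIs, Kcnj16 was seen in 9.27% of Kupffer cells and 1.12% of neutrophil-like cells. Among genes with at least 50 CPM in the other saline cells, the 10 with the largest deficit were Sema6a, Mmrn2, F8, Meis2, Cd93, Slpi, Aqp1, S100a6, Napsa and S100a4. Coagulation factor F8, made in liver endothelium, had 4.63 CPM in Kupffer cells and 131 CPM in the other saline cells, and S100a4 had 8.21 and 179 CPM.

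Transcripts used as markers of other cell types were counted in the Kupffer cells at levels that differed by list, and their origin was not tested. The 14 endothelial markers summed to 247 CPM in Kupffer cells, of which Stab2 held 126 CPM, and to 6728 CPM in cells with a sum under 1%. The 12 neutrophil markers summed to 129 and 9194 CPM, and the 11 T and NK markers to 3.65 and 255 CPM, in the same 2 groups. The 10 monocyte markers summed to 819 CPM in Kupffer cells, of which Plac8 held 506 and Treml4 195 CPM (against 81.2 CPM of Treml4 in cells with a sum under 1%), while the chemokine receptor Ccr2 of recruited monocytes was at 7.59 CPM, against 727 CPM in monocyte-like cells. Of 11 hepatocyte markers, 0 were 2-fold higher or lower in Kupffer cells than in cells with a sum under 1%. Alb had 1595 CPM in Kupffer cells, 1309.7 CPM in neutrophil-like cells and 1536 CPM in endothelial-like cells. They summed to 2653 CPM in Kupffer cells, 2562 in endothelial-like, 2147 in neutrophil-like, 1152 in T- or NK-like, 1134 in B- or plasma-like and 919 CPM in monocyte-like cells. No marker of any of these lists was at 0 in the summed Kupffer cells. Doublets were not called, and the limits on endothelial, neutrophil and cell cycle genes were the only guard against them.

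The 1406 cells set aside for endothelial UMIs were close to the Kupffer cells in most genes. Of 6399 genes, 3 (0.0469%) were higher by 2-fold or more in Kupffer cells than in those 1406 cells and 125 (1.95%) lower by 2-fold or more, of which 104 were under 20 CPM in Kupffer cells. Among the lower genes were 13 of 14 endothelial markers and 9 proliferation genes. The rule fixed both, since it limits endothelial UMIs and cell cycle genes in Kupffer cells, while the 1406 cells had no limit on cell cycle genes and held 114 cells with 3 or more of them. Clec4f had 5475 CPM in Kupffer cells and 5114 CPM in the cells with endothelial UMIs, and Cd5l had 7614 and 7287 CPM. Kdr had 9.75 CPM in Kupffer cells, 254 CPM in the cells set aside and 3055 CPM in endothelial-like cells. Mrc1, reported to be high with Esam in a subset of Kupffer cells, had 1093 and 1149 CPM, Esam (named after its values were seen) 2.72 and 29.2 CPM and Cd36 194 and 228 CPM in Kupffer cells and in the cells set aside. The Kupffer cells kept by the rule cannot show such a subset in full, since the limit on endothelial UMIs removes cells that hold such transcripts.

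Cycling cells with a Kupffer sum differed from the Kupffer cells in more genes. Of 6645 genes, 329 (4.95%) were lower by 2-fold or more in Kupffer cells than in the 532 cells with 3 or more cell cycle genes and at most 1 endothelial UMI, and 3 (0.0451%) higher by 2-fold or more, again the hemoglobins. Of the 329, 243 were under 20 CPM in Kupffer cells. All 14 proliferation genes were among the lower, as the limit on 7 of them had set. Top2a had 8.36 CPM in Kupffer cells and 384 CPM in the cycling cells. None of the 20 surface and secreted Kupffer genes reached 2-fold, and 19 measured ones had a median log2 ratio of 0.30 in Kupffer cells over cycling cells, beside -0.01 over all genes. Clec4f had 5475 CPM in Kupffer cells and 4468 CPM in cycling cells, Vsig4 3301 and 2570.5 CPM, while Marco had 815 and 1162 CPM. The cycling cells were deeper, with a median of 9890 UMIs.

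Most genes varied little from one Kupffer cell to the next. The spread between cells beyond counting error was measured as a biological coefficient of variation (CV), the standard deviation of a gene's share of UMIs divided by its mean. Over 3314 genes with at least 50 CPM the median CV was 0.332, with a 5th percentile of 0.190 and a 95th of 0.631. The surface and secreted Kupffer genes at 50 CPM or more had a median CV of 0.321, near that of all genes. Cd5l had a CV of 0.233, Slc40a1 0.272, Clec4f 0.288, Timd4 0.288, C6 0.299, Vsig4 0.375, Folr2 0.398, Fcna 0.439 and Cd163 0.575. Single Kupffer cells held a median of 50.6 Clec4f UMIs per 10000, with a 5th to 95th percentile of 23.1 to 86.5. The rule holds the sum of Cd5l, Slc40a1, Clec4f, Vsig4 and Marco above a limit, which narrows their spread.

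**Figure D3:**
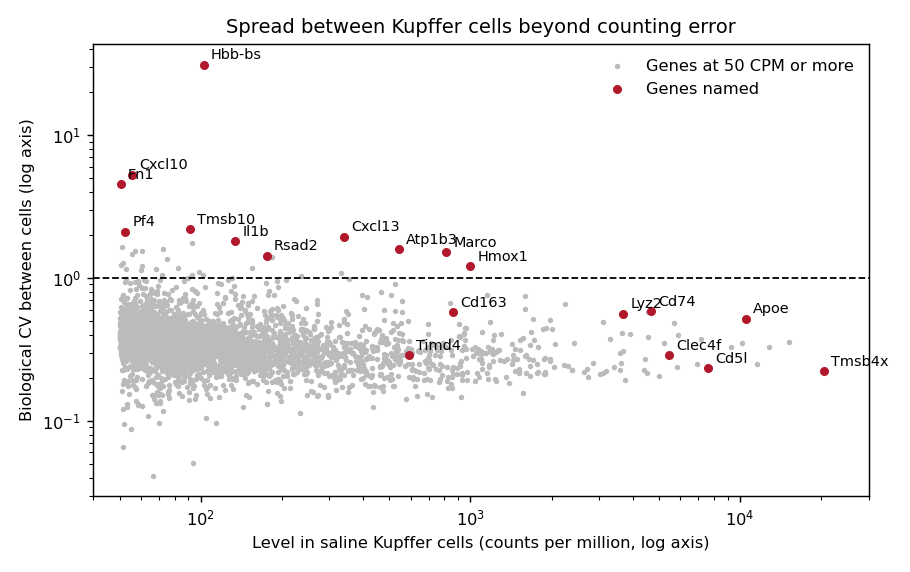
Biological CV between saline Kupffer cells (vertical log axis) against level (horizontal log axis, CPM) for genes with at least 50 CPM and a CV estimate above 0. Genes named in the text are red, the dashed line marks a CV of 1, and Marco, Hmox1, Atp1b3 and Cxcl13 stand above it at levels where most genes are under 0.5.

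A CV of at least 1 was reached by 34 of the 3314 genes (1.03%), of which 17 are in the gene lists. Hbb-bs had the highest value, 31.1, beside the 10 cells described above that held most hemoglobin UMIs. Then came the interferon-inducible chemokine Cxcl10 (5.26), Fn1 (4.53), Tmsb10 (2.20), Pf4 (2.10), Cxcl13 (1.94) and Il1b (1.81). Several of these genes were higher in the cells with a sum under 1% than in Kupffer cells. Fn1 had 50.5 CPM in Kupffer cells and 260.2 CPM in those cells, Tmsb10 91.3 and 1658 CPM and Cxcl10 55.7 and 221 CPM. For such genes the part of RNA from another cell in the spread was not tested. Other uneven genes were higher in Kupffer cells than in cells with a sum under 1%, among them Cxcl13, Atp1b3, Marco, Hmox1, Cd207, Rsad2 and Cd83. Cp (60.1 and 35.1 CPM) was also among them. The contrast was narrow for Rsad2 (176 and 150 CPM) and for Fabp1 (235 and 203 CPM), a further gene of this kind.

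Marco was an uneven gene of the rule's own sum. It encodes a scavenger receptor that binds bacteria and particles and lies at chr1:120474538-120505024 (- strand). It had 815 CPM and a CV of 1.51, its median was 3.89 UMIs per 10000, its 95th percentile 31.1 and its 99th 54.98. No Marco UMI was seen in 24.04% of Kupffer cells, against 6.87% that counting error alone would leave at an even level. In the 3825 Kupffer cells with most UMIs these shares were 16.4% and 0.0848%. Timd4 had a low CV at a somewhat lower level (594 CPM): its shares of cells without a UMI were 13.6% seen and 10.8% from counting error, and in the deeper cells 1.33% and 0.434%. Other markers with a CV under 1 also exceeded counting error, so such an excess is not particular to the uneven genes. For Cd163 (CV 0.575) the shares were 14.1% and 6.28%, and in the deeper cells 4.73% and 0.0571%. For Folr2 they were 7.02% and 3.38% in all Kupffer cells, and for C6 8.29% and 4.396%. The 10% of Kupffer cells with most Marco held 46.6% of its UMIs.

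Cxcl13 and Hmox1 were also uneven, but differed in their share of cells without a UMI. Cxcl13 (chr5:95956951-95961068 (+ strand)) had a CV of 1.94, no UMI in 46.5% of Kupffer cells against 20.8% from counting error, and a 99th percentile of 32.8 UMIs per 10000. In the deeper cells it was unseen in 34.98% against 3.69%, and the top 10% of cells held 54.0% of its UMIs. Hmox1 (chr8:75093621-75100589 (+ strand)) had a CV of 1.205. No Hmox1 UMI was seen in 12.1% of Kupffer cells against 4.92% from counting error, and in the deeper cells in 2.64% against 0.0261%. Its median was 5.84 UMIs per 10000 and its 99th percentile 69.6, and the top 10% of cells held 41.7% of its UMIs. Atp1b3, a subunit of the sodium pump, had a CV of 1.59 with a median of 2.80 and a 95th percentile of 24.9 UMIs per 10000. Cd207 (langerin), a lectin known from Langerhans cells and named here after its values were seen, had 184 CPM in Kupffer cells, a CV of 1.40 and a UMI in 43.01% of them.

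**Figure D4:**
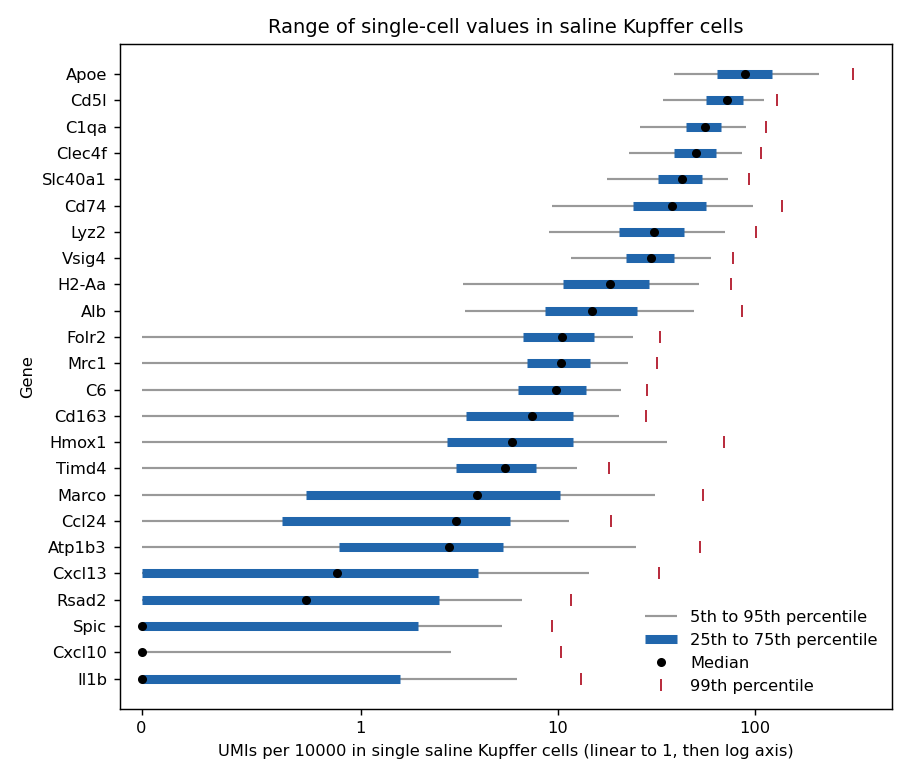
UMIs per 10000 in single saline Kupffer cells (horizontal axis, linear up to 1 and logarithmic above) for 24 genes, ordered by median. Thick bars span the 25th to 75th percentile, thin lines the 5th to 95th, points are medians and red ticks 99th percentiles. Cd5l, C1qa, Clec4f and Slc40a1 have narrow ranges, while Marco and Hmox1 reach 55.0 and 69.6 at the 99th percentile from medians of 3.89 and 5.84.

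Correlations between the uneven genes were weak. Over 7650 cells, on log values per 10000 UMIs, Marco correlated with Cxcl13 at r = 0.14 (0.10 after thinning to 1000 UMIs), with Actb at 0.19 (0.10) and with Apoe at -0.17 (-0.10). Hmox1 correlated with the iron exporter Slc40a1 at 0.24 (0.10) and with Lpl at 0.23 (0.09). Correlations of this size in sparse counts are not findings, and all cells share 1 library and differ in depth. Larger values were found among abundant genes. The MHC class II list, whose summed CV was 0.614, correlated with Apoe at 0.41 (0.28 thinned), Lyz2 at 0.34 (0.19) and C1qa at 0.30 (0.19). The summed complement list correlated with the lipid list at a Spearman rho of 0.56 (0.37 thinned) and with the surface and secreted Kupffer list, which shares 2 genes with it, at 0.49 (0.36). The surface and secreted list correlated with the lysosome list at 0.47 (0.30), and with Ctsb at r = 0.44 (0.27). The iron list correlated with Tmsb4x at r = 0.50 (0.37).

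Lists differed in how evenly Kupffer cells expressed them. The summed CV was 0.135 for 26 lysosomal genes, 0.151 for 14 MHC class I genes and 0.160 for 20 surface and secreted Kupffer genes. It was 0.276 for 20 interferon-stimulated genes, 0.340 for 16 lipid genes and 0.526 for 20 immediate early and heat shock genes. The 17 inducible cytokines had a summed CV of 2.08: 26.5% of Kupffer cells had none of their UMIs and the top 5% of cells held 34.0% of them. Of 17 cytokine genes, 3 reached 50 CPM (Il1b, Il1rn and Cxcl10). Their sum correlated with Junb at r = 0.21 (0.08 thinned), Pim1 at 0.20 (0.07) and Nfkbia at 0.20 (0.07). The interferon-stimulated genes Rsad2 and Ifi44 had CVs of 1.43 and 1.48, while Irf7 and Ifitm3 had 0.312 and 0.437.

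Levels of several lists went with the depth and mitochondrial share of the cell. Kupffer cells with the fewest UMIs (up to 3066, the lower quartile) had hepatocyte markers at 4492 CPM, and those with the most (from 10015, the upper quartile) had 2249 CPM. The surface and secreted list had 28157 and 33346 CPM, and the proliferation list 777 and 502 CPM, in cells with the fewest and with the most UMIs. Cells above the upper quartile of mitochondrial share (9.84%) had hepatocyte markers at 3866 CPM and those below the lower quartile (5.67%) had 2140 CPM. Iron and heme genes had 18813 CPM in cells of high and 23129.7 CPM in cells of low mitochondrial share, and MHC class II genes 8747 and 11243 CPM. Over all Kupffer cells the hepatocyte sum had a Spearman rho of 0.35 with the mitochondrial share (0.28 thinned) and -0.33 with the number of UMIs (-0.28 thinned). The part of depth, cell quality and free RNA in the spread of single genes was not tested beyond these values.

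The same rule was then applied to the Ter119 library, to see which features of the saline Kupffer cells were shared. It kept 6333 of 13846 cells (45.7%, 44.9 to 46.6%), with a median of 3550 UMIs and 5.18% mitochondrial UMIs. The effects of the antibody, of the mouse and of the library cannot be told apart here. Of 6422 genes, 273 (4.25%) were higher by 2-fold or more in the Ter119 cells and 521 (8.11%) lower by 2-fold or more. Of these, 131 of the higher genes had under 20 CPM in saline cells and 292 of the lower genes under 20 CPM in Ter119 cells. List counts below for Ter119 against saline cells are to be read beside 4.25% of all genes higher and 8.11% lower. The median log2 ratio of all genes was -0.18. It was 0.05 after median-of-ratios scaling and -0.34 with all UMIs, hemoglobin included, in the denominator, and the share of higher genes among the calls was 34.4%, 53.0% and 21.7% under these 3 scalings.

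The Kupffer cells met the rule through different genes in the 2 libraries. The 5 genes summed to 1.71% of UMIs without hemoglobin in Ter119 cells and 2.17% in saline cells. Marco made up 29.0% of the sum in Ter119 cells and 3.76% in saline cells, Clec4f 6.79% and 25.3%, Vsig4 4.35% and 15.2%, while Cd5l made up 35.8% and 35.2%. All 7 markers were seen in 0.790% of Ter119 cells and 71.8% of saline cells. Timd4 had 29.2 CPM in Ter119 cells and 594 CPM in saline cells (log2 ratio -4.35), Cd163 34.2 and 863 CPM (-4.66), and C6 67.1 and 1065 CPM (-3.99). After thinning to 1000 UMIs Timd4 was seen in 2.70% of Ter119 cells, 42.7% of saline Kupffer cells and 11.9% of saline neutrophil-like cells. Cd5l at 6125 and 7614 CPM and Slc40a1 at 4134 and 4449 CPM were within 1.5-fold. The rule selects on these genes, so the ratios of the 5 are limited by it. Of the 19 measured surface and secreted genes, 11 were lower by 2-fold or more in Ter119 cells (2 of them measured through saline cells alone) and 2 higher by 2-fold or more, with a median log2 ratio of -1.03 (-0.81 and -1.19 under the other 2 scalings).

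Complement and antigen presentation genes were lower in the Ter119 cells. Of 16 measured complement genes, 10 were lower by 2-fold or more (3 of them measured through saline cells alone) and 0 higher, and the median log2 ratio was -1.62 (-1.39 and -1.78). Over all genes 8.11% were lower and 4.25% higher. Vsig4, a gene of the rule's sum, is among the 10. C4b had 15.4 CPM in Ter119 cells and 478 CPM in saline cells, and C2 had 6.65 and 157 CPM. C1qa was less apart, with 3293 CPM in Ter119 cells and 5819 CPM in saline cells. Of 6 measured MHC class II genes, 5 were lower by 2-fold or more and 0 higher (median -2.49, and -2.27 and -2.65). Cd74 had 961 CPM in Ter119 cells and 4662 CPM in saline cells, and H2-Aa had 293 and 2239.7 CPM. Of 20 interferon-stimulated genes, 8 were lower by 2-fold or more (1 of them measured through saline cells alone) and 0 higher, with Irf7 at 164 CPM in Ter119 cells and 751 CPM in saline cells. Apoc1 had 107 CPM in Ter119 cells and 3116 CPM in saline cells. The 11 hepatocyte markers summed to 442 CPM in Ter119 cells and 2653 CPM in saline cells, with Alb at 274 CPM in Ter119 cells and 1595 CPM in saline cells. The part of free RNA in these differences was not tested.

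The uneven genes of saline Kupffer cells went different ways. Cxcl13, unseen in 46.5% of the saline Kupffer cells, had 7 UMIs in all Ter119 cells together, 0.332 CPM, against 339.7 CPM in saline cells. Its ratio of 0.000978 has a counting interval of 0.000393 to 0.00202. Marco had 4959 CPM in Ter119 cells and 815 CPM in saline cells, 6.09-fold higher (6.02 to 6.16), and Hmox1 had 6789 and 999 CPM, 6.79-fold higher (6.73 to 6.86). For Marco and Hmox1 a lower CV went with the higher level: Marco had 0.691 in Ter119 cells and 1.51 in saline cells, and Hmox1 0.386 and 1.205. Not all uneven genes followed this order. Atp1b3 was lower in Ter119 than in saline cells both in level (259 and 544 CPM) and in CV (0.414 and 1.585). Gbp2 was higher in both, with 161 and 98.5 CPM and CVs of 1.317 and 1.102. Clec4f and Vsig4 had a lower level and a higher CV in Ter119 cells. Their CVs were 0.836 and 1.16 in Ter119 cells and 0.288 and 0.375 in saline cells, while Cd5l had 0.208 and 0.233. The difference of these CVs was not tested. Marco, Clec4f, Vsig4 and Cd5l are genes of the rule's sum, so the rule bears on their levels and CVs. Marco made up 29.0% of the sum in Ter119 cells and 3.76% in saline cells, so its 2 CVs are not like for like. Fth1 had 33194 CPM in Ter119 cells and 5702 CPM in saline cells, and Spic had 513 and 130.03 CPM. Over 14 measured iron and heme genes 5 were higher by 2-fold or more and 2 lower (1 of these measured through saline cells alone), with a median log2 ratio of 0.08 that turned to -0.08 with all UMIs in the denominator. The lysosome list, with 4 of 26 genes higher (2 of them measured through Ter119 cells alone) and 0 lower, had a median of 0.05 that turned to -0.11. The 11 macrophage genes known from damaged or fatty tissue summed to 3957 CPM in Ter119 cells and 1421 CPM in saline cells. Lgals3 had 1232 CPM in Ter119 cells and 515 CPM in saline cells, and Anxa5 had 546 and 476 CPM. Gpnmb had 447 CPM in Ter119 cells and 0.484 CPM (26 UMIs) in saline cells, and the lysosomal membrane protein Cd63 had 649 and 7.69 CPM. A hemoglobin UMI was seen in 99.98% of the Ter119 cells and in 5.02% of saline Kupffer cells. The 12 neutrophil markers, of which the rule limits S100a8 and S100a9, summed to 482 CPM in Ter119 cells and 129 CPM in saline cells.

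**Figure D5:**
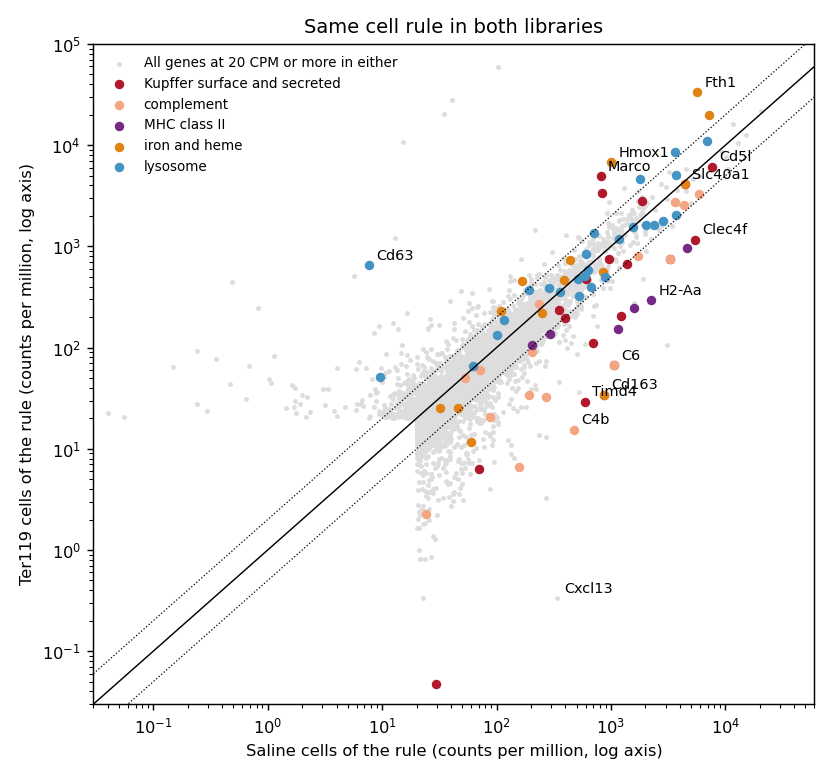
Levels in Ter119 cells of the rule (vertical axis) against saline cells of the rule (horizontal axis), both in CPM on log axes, for genes with at least 20 CPM in either. The solid line marks equal levels and dotted lines 2-fold. Marco, Hmox1, Fth1 and Cd63 lie above the upper dotted line, Timd4, Cd163, C6, C4b, H2-Aa and Cxcl13 below the lower one, and Cd5l and Slc40a1 between them.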

How the data were processed

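Liver cells of 1 saline and 1 Ter119 mouse were measured by droplet 3' RNA sequencing. The deposited matrices hold UMI counts per gene and barcode, which the authors made with Cell Ranger 6.0.2, per the file headers. The submitters' processing notes list the build GRCm38.p6 and, with no role given, Seurat 3.2.3, Scanpy 1.7.0, Cell Ranger 4.0.0 and DESeq2 1.26.0. Barcodes held at least 620 UMIs (saline) or 500 (Ter119), so barcodes had been filtered before deposit. The step that split the pool by hashtag is not described in these sources. Of 26078 gene identifiers, 25965 matched GENCODE vM21.

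The members and gene lists were chosen with earlier results of these data known. Counts were summed over cells in Python 3.11.15 with numpy 2.4.6, scipy 1.17.1 and pandas 2.3.3, and figures were drawn with matplotlib 3.10.9. Hemoglobin UMIs were left out of the denominator. Other saline cells were named "-like" from the marker list with most UMIs, at least 5 and without a tie. Ratios used genes with 20 CPM in either group and a size rule of 2-fold. Intervals at 95% were exact Poisson for levels, exact conditional binomial for ratios and Clopper-Pearson for shares, and a floor of 3 counts stood for 0. The CV used genes with 50 CPM in Kupffer cells and subtracted Poisson variance. Thinning to 1000 UMIs drew UMIs without replacement. Doublets were not called.

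Named genes were the markers and rule genes, the 5 most abundant genes of each list, the 15 highest and 10 lowest ratios outside the lists, the 15 highest CVs, the 3 largest differences from Ter119 cells in each list and the 5 genes most correlated with list sums; other list members and names were picked after values were seen. Near-identical genes (Hba-a1 and Hba-a2, among others) may share reads. Calculations were tested on simulated counts. Alternatives covered cell filters, the rule's limits, level filters, scaling, shared barcodes and depth.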

Additional observations from a re-analysis of the deposited data

How the results depend on the processing

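The share of Kupffer cells, 66.1% of saline cells, was 59.1% with a mitochondrial limit of 5%, 38.7% with a Kupffer sum of at least 2%, 68.5% with at least 0.5% and 75.3% with the endothelial limit applied after thinning. The 3 genes higher by the 2-fold rule than in other saline cells were 62 with the mitochondrial limit of 5%, 1 with the Kupffer sum at 2%, 45 with the thinned endothelial limit, 1 at 100 CPM, 223 with no level filter, 8 as means of per-cell CPM and 522 against only the cells with a sum under 1%. They were 0 without the Kupffer cells whose hemoglobin reached 1% of UMIs, an alternative chosen after seeing the data. The 430 lower genes were 274 with the Kupffer sum at 2%, 647 with the thinned endothelial limit, 77 at 100 CPM, 3084 with no level filter and 953 against only the cells with a sum under 1%. The 34 genes with a CV of at least 1 were 20 with the Kupffer sum at 2%, 12 at 100 CPM, 4007 with no level filter and 106 after thinning. The 273 genes higher in Ter119 than in saline cells were 113 at 100 CPM and 1468 with no level filter, and the 521 lower were 157, 2596 and, with median-of-ratios scaling, 345. A level filter changes the genes tested and a limit of the rule changes the cells; for the other settings the cause was not tested. Among 1456 values of named genes under the alternatives, 1045 stayed near the main value and 411 moved further. Near meant inside the counting interval for a ratio and within 1.5 times for a CV, which held for 201 of 210 CVs. A change of direction was counted only for ratios of at least 2-fold either way in the main setting, and 0 were found. For smaller ratios it was not counted. No paired analysis was possible because each group is 1 mouse, and no replicate could be left out. Depth limits genes near 20 CPM and cells near 1000 UMIs most.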
